A study of Homo sapiens with 12 samples.

Results

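The genes described here are 37 NF-κB factors, chemokines and cytokines, picked by symbol from the 57820 gene identifiers of the count tables. All 37 had an identifier in both tables, and the rule that picks them is a list of symbols with no threshold on a measured value. By role they are 6 CXC chemokines, 2 CC chemokines, 9 cytokines, 4 NF-κB subunits, 5 inhibitors and coregulators of the IκB family, 6 signal adaptors and brakes, and 5 other target genes. They were measured in AsPC-1 cells, a long-established line from human pancreatic ductal adenocarcinoma, grown with fetal bovine serum.

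Total RNA depleted of rRNA was sequenced in 12 libraries, 3 in each of 4 groups. SiBACH1 cells received a small interfering RNA (siRNA) against *BACH1* by lipofection and were harvested 24 h later. SiCont cells were the controls of that experiment and were also harvested 24 h after transfection. SgBACH1 cells carried the lentiviral vector lentiCRISPR v2, which brings Cas9, with a guide to *BACH1*, and sgCont cells were their controls. Both sgBACH1 and sgCont cells had been selected in 10 µg/ml puromycin. The siRNA, the control siRNA and the control guide are not described further in the sources used here, and neither is whether the knockout cells were a pool or 1 clone. *BACH1* encodes a heme-binding repressor of transcription, and the study searched for genes under its control.

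NF-κB is a family of dimeric transcription factors that IκB proteins hold in the cytoplasm until an inflammatory signal has them degraded. The freed dimers bind κB sites and switch on chemokines, cytokines, survival genes and their own inhibitors, so that *NFKBIA* and *TNFAIP3* are at once targets and brakes. CXC chemokines with the ELR motif draw neutrophils through the receptor CXCR2, and pancreatic cancer cells are known to secrete them.

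*CXCL1*, *CXCL2*, *CXCL3*, *CXCL5* and *CXCL8* lie within 1 cluster on chromosome 4, from chr4:73740506-73743716 (*CXCL8*) to chr4:74097035-74099293 (*CXCL2*) in GENCODE 29 (GRCh38). The bases from 100 to 41 before their transcription starts are shown, from RefSeq on GRCh38.p14. Each carries a κB motif there, and not all of these genes were called in the comparisons below. They were not tested against one another. Capitals mark matches to GGNNNTTCC on the gene's strand.
CXCL8 (chr4:73740469-73740528, plus strand): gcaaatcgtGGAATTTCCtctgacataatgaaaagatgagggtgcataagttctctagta
CXCL1 (chr4:73869293-73869352, plus strand): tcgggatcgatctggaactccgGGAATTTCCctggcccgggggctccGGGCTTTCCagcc
CXCL5 (chr4:73998718-73998777, minus strand): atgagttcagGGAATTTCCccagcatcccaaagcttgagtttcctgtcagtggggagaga
CXCL3 (chr4:74038730-74038789, minus strand): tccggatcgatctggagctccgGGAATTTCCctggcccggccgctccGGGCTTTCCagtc
CXCL2 (chr4:74099236-74099295, minus strand): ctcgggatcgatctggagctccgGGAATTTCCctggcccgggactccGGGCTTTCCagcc

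The windows of *CXCL1* and *CXCL3* were identical at 55 of 60 bases. Both have the first match 78 bases and a further match 53 bases before the start, and *CXCL2* has them at 77 and 53. *CXCL5* and *CXCL8* have 1 site each, at 90 and 91 bases.

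Windows around the motif are shown next for *NFKBIZ*, *TNFAIP3*, *NFKBIA*, *BIRC3* and *TNFAIP2*, on which the results below turn. Capitals mark matches on either strand.
NFKBIZ (chr3:101827748-101827807, plus strand): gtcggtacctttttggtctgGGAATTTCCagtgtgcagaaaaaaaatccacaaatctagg
TNFAIP3 (chr6:137867184-137867243, plus strand): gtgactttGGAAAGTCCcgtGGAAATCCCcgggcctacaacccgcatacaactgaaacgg
NFKBIA (chr14:35404791-35404850, minus strand): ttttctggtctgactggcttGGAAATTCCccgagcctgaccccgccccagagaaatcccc
BIRC3 (chr11:102317265-102317324, plus strand): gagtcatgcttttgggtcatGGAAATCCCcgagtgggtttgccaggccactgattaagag
TNFAIP2 (chr14:103123344-103123403, plus strand): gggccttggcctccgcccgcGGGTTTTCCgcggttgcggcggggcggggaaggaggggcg

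RefSeq promoters, from 250 bases before to 50 after the start, were matched for 30 of the 37 genes. Searched on both strands, the κB motif GGNNNTTCC was in 18 of these 30 (60%), against 20.1% of 35116 promoters. The motif TGACNNNGC, of the type that BACH1 and NRF2 share, was in 4 of 30 (13.3%), namely *CCL28*, *IL1A*, *NFKBIA* and *TNFAIP2*, and in 13.3% of all promoters. Each motif was searched for by itself, and the promoters of *NFKBIA* and *TNFAIP2* hold both. Matches are letters in a window and not measured binding.

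Libraries held 13099706 to 21478886 counts, and levels are given as CPM, which are counts relative to the effective library total. *BACH1* was at 24.9, 27.7 and 24.7 CPM in siBACH1, against 196.9, 293.7 and 196.5 CPM in siCont. It was at 218.3, 198.1 and 185.3 CPM in sgBACH1, against 267.8, 293.7 and 276.4 CPM in sgCont. No targeted library reached a control in either experiment. The exact two-sided permutation p was 0.1 both times, which is the lowest that 3 libraries against 3 can give. These are levels of *BACH1* RNA, and they do not measure the protein left in the cells. *HMOX1*, the other gene read as a check of the perturbation, averaged 173.6 CPM in siBACH1 and 6.63 CPM in siCont. It averaged 474.1 CPM in sgBACH1 and 8.99 CPM in sgCont. Epithelial markers summed to 13030 to 13290 CPM in siBACH1, 11040 to 13390 CPM in siCont, 12190 to 13750 CPM in sgBACH1 and 18940 to 20140 CPM in sgCont, with 8 of 9 listed genes at 1 CPM or more. Fibroblast markers summed to 338.5 to 361.5 CPM in siBACH1, 293.8 to 302.8 CPM in siCont, 45.8 to 52.2 CPM in sgBACH1 and 113.4 to 139.9 CPM in sgCont, nearly all of it *LUM*. Blood markers summed to 78.3 to 81.1 CPM in siBACH1, 85.5 to 123.3 CPM in siCont, 665.3 to 807.2 CPM in sgBACH1 and 54.9 to 70.2 CPM in sgCont, nearly all of it *LYZ*, with *CD3D* at 0. Without *LUM* and *LYZ* no library exceeded 2.41 and 4.35 CPM for these lists, and endothelial markers stayed under 1 CPM. The part of these sums in the results below was not tested. The labels do not say whether replicates came from separate cultures, and p-values therefore cover the spread between these libraries only, which may be technical. In such bulk RNA, fewer expressing cells and less RNA per cell cannot be told apart.

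Per kb of exon, which allows levels of different genes to be compared, *IER3* was the highest of the 37 at 115.7 CPM per kb over the 12 libraries. *IL18* followed at 42.4, *TNIP1* at 29.2, *LIF* at 24.9, *TNFAIP2* at 20.7 and *NFKBIA* at 19.3 CPM per kb. *IER3* and *IL18* held these places in each of the 4 groups, and the order of the others varied: *TNFAIP2* averaged 8.11 CPM per kb in sgBACH1, against 25.5 in sgCont. Among the neutrophil-drawing chemokines *CXCL5* was at 6.87, *CXCL1* at 4.12, *CXCL3* at 3.64, *CXCL2* at 3.52 and *CXCL8* at 1.33 CPM per kb over the 12 libraries. This order too varied, with *CXCL2* at 4.19 and *CXCL5* at 3.43 CPM per kb in siCont. At the bottom were *TNF* (0.0558), *IL6* (0.00673) and *PTGS2* (0.00111 CPM per kb). On the scale of CPM, 33 members averaged 1 or more, 20 averaged 10 or more and 4 averaged 100 or more.

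**Figure D1:**
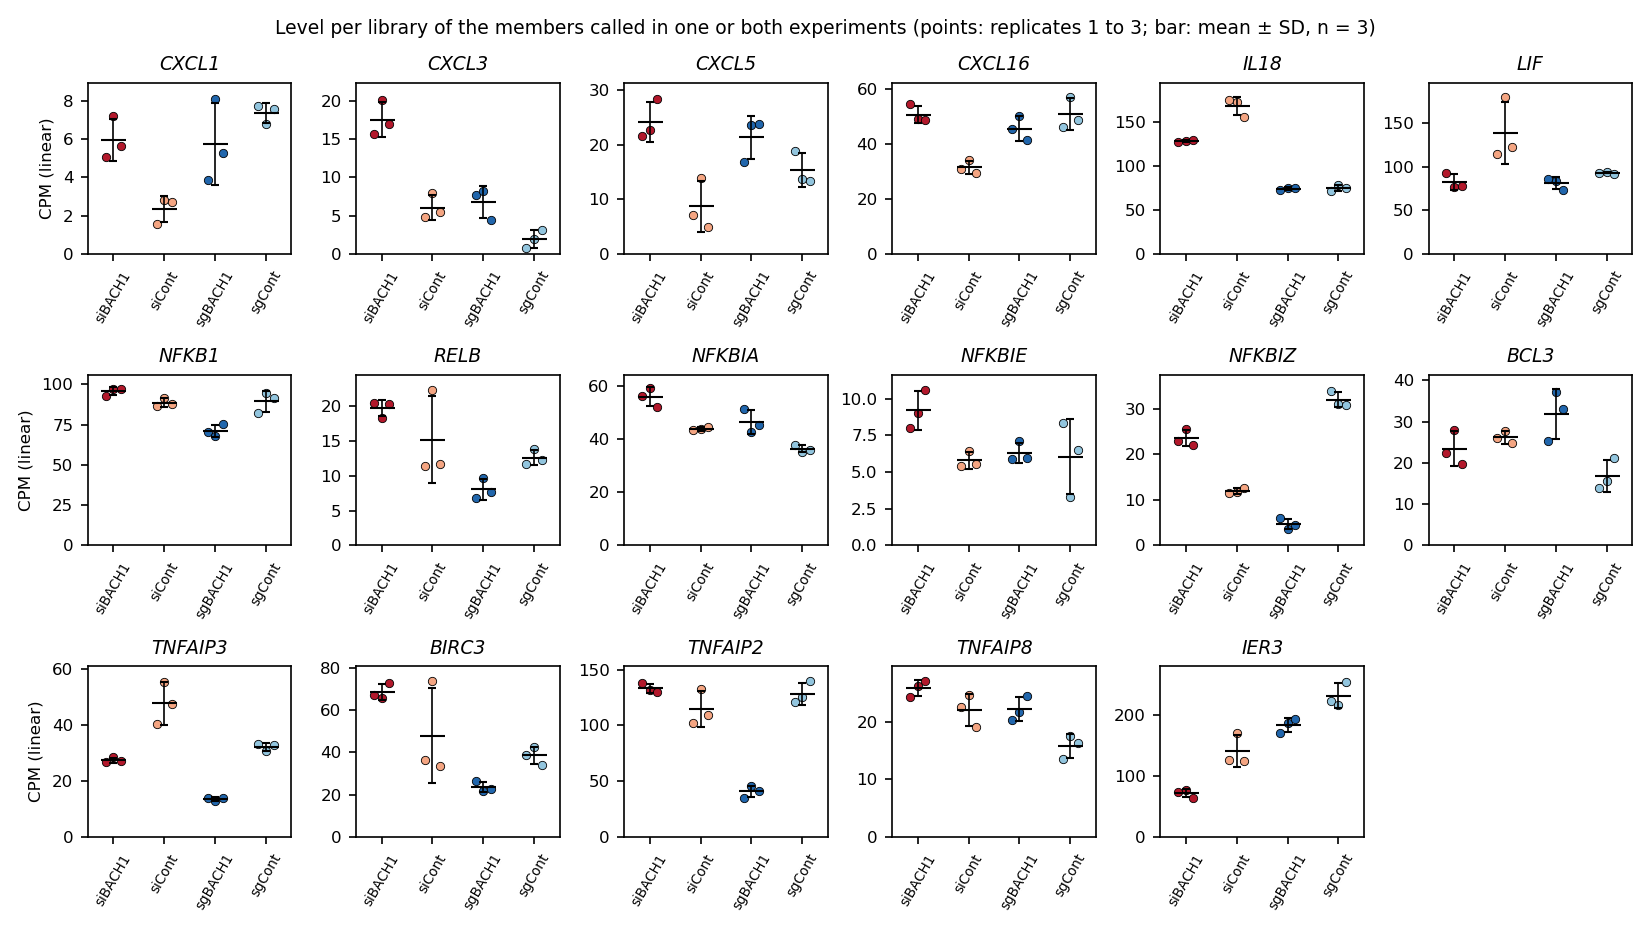
Level of the 17 members called in one or both experiments, in CPM on a linear axis starting at 0, for siBACH1, siCont, sgBACH1 and sgCont; points are replicates 1 to 3 and bars are means ± SD (n = 3). *NFKBIZ* was higher in siBACH1 than in siCont and lower in sgBACH1 than in sgCont, and *TNFAIP3* was lower in both.

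The siRNA comparison asked how these genes stood 24 h after *BACH1* was targeted. The chemokine genes *CXCL1*, *CXCL3*, *CXCL5* and *CXCL16* and the IκB family genes *NFKBIA*, *NFKBIE* and *NFKBIZ* rose, while *IER3*, *TNFAIP3*, *LIF* and *IL18* fell. Of the 37, 33 passed the filter on low counts and were tested by edgeR among 14591 genes. At an adjusted p below 0.05, 7 rose and 4 fell, and 22 were not called. Over all genes tested, 10.9% rose and 13.0% fell, so that 7 of 33 is above that share for rises and 4 of 33 is near it for falls. The median log2 fold change of the 33 was 0.11, against 0.01 over all genes. The libraries of siBACH1 and siCont did not overlap for 15 of the 33, of which 11 were higher and 4 lower in siBACH1, and for 42.5% of all genes.

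Among the chemokines *CXCL3* (ENSG00000163734.4, chr4:74036589-74038807) stood at 15.7, 20.1 and 16.9 CPM in siBACH1, against 4.85, 7.89 and 5.42 CPM in siCont. All siBACH1 libraries were above all siCont libraries. It averaged 17.6 ± 2.28 CPM in siBACH1 and 6.05 ± 1.62 CPM in siCont (SD, n = 3 each), 2.92-fold higher in siBACH1 (log2 1.54 ± 0.20 SE, edgeR adjusted p = 0.000717).

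*CXCL5* (ENSG00000163735.6, chr4:73995642-73998779), a further ligand of CXCR2, stood at 21.6, 22.8 and 28.4 CPM in siBACH1, against 7.17, 14.0 and 5.00 CPM in siCont. The groups did not overlap, with siCont replicate 2 the nearest to siBACH1. It rose by 1.497 ± 0.31 on the log2 scale (SE, edgeR adjusted p = 0.00784), and by 2.00 ± 0.17 without that library (edgeR adjusted p = 4.31e-09).

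*CXCL1* (ENSG00000163739.4, chr4:73869393-73871242) stood at 5.06, 7.18 and 5.61 CPM in siBACH1, against 1.55, 2.79 and 2.71 CPM in siCont. These rest on 83, 143 and 122 counts in siBACH1 and on 22, 35 and 46 counts in siCont, and the groups did not overlap. The log2 fold change was 1.34 ± 0.28 (SE, edgeR adjusted p = 0.00819). *CXCL16*, a membrane-anchored chemokine that also serves as a scavenger receptor, stood at 54.3, 48.9 and 48.7 CPM in siBACH1, against 30.9, 34.1 and 29.4 CPM in siCont. It rose by 0.69 ± 0.10 (SE, edgeR adjusted p = 0.00123) with no overlap. Its exons overlap those of *MED11* on the opposite strand, so without strand-aware counting the reads cannot be told apart.

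*CXCL2* and *CXCL8* did not pass. *CXCL2* stood at 9.01, 7.68 and 10.1 CPM in siBACH1, against 3.31, 11.8 and 3.77 CPM in siCont, where replicate 2 was above every siBACH1 library (log2 0.53, edgeR adjusted p = 0.409). *CXCL8*, interleukin 8, stood at 3.47, 2.96 and 3.49 CPM in siBACH1, against 1.27, 8.05 and 3.36 CPM in siCont. The CC chemokines *CCL20*, which attracts cells bearing CCR6, and *CCL28*, a mucosal chemokine, were at -0.66 and -0.77 on the log2 scale and did not pass (edgeR adjusted p = 0.443 and 0.349). Among transcripts of the chemokine paralogs, 4.81% of the 50-base words of *CXCL1* are shared with *CXCL2*, and 8.99% of those of *CXCL2* with *CXCL3*, so a part of their reads may be split or lost.

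Of the 9 cytokines 6 were tested, 2 fell and none rose, while 13.0% of all genes fell and 10.9% rose. So few genes hold few calls at such shares. *IL18*, which epithelial cells store as a precursor cleaved by caspase-1, stood at 127, 128 and 129 CPM in siBACH1, against 175, 172 and 156 CPM in siCont. Its groups did not overlap, and it fell by 0.39 ± 0.08 on the log2 scale (SE, edgeR adjusted p = 0.00592). *LIF*, a cytokine of the interleukin 6 family, stood at 93.0, 76.4 and 78.4 CPM in siBACH1, against 114, 179.6 and 122 CPM in siCont.

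The groups of *LIF* did not overlap, and it fell by 0.75 ± 0.16 (SE, edgeR adjusted p = 0.0101). Leaving out replicate 2 or 3 of siBACH1 ended the call (edgeR adjusted p = 0.0531 and 0.0538), and *LIF* exons overlap those of *LIF-AS1* on the opposite strand. *CSF1*, the macrophage growth factor, stood at 12, 9.34 and 11.7 CPM in siBACH1, against 7.46, 4.15 and 8.48 CPM in siCont, and did not pass (log2 0.70, edgeR adjusted p = 0.0717). *IL1A* and *IL1B*, the interleukin 1 ligands, were at -1.66 and -1.47 and did not pass (edgeR adjusted p = 0.102 and 0.165), and *IL32* was at -0.12. *IL1A* stood at 0.853, 0.653 and 1.33 CPM in siBACH1, against 1.41, 6.62 and 1.24 CPM in siCont, where siCont replicate 2 was far above the other 5 libraries; without it the value was -0.47.

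*IL6*, *TNF*, *CSF2* and *PTGS2* did not pass the filter in either experiment. *TNF* had 0 counts in all siBACH1 and siCont libraries, which allows up to 0.0518 CPM in siBACH1 and 0.0684 CPM in siCont (3 counts over the group, counting error only). *IL6* had at most 1 count and *PTGS2* at most 1 count in any of the 12 libraries. *CSF2* had 2, 1 and 14 counts in siBACH1 and 6, 1 and 4 counts in siCont.

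None of the 4 tested NF-κB subunit genes was called, where 10.9% of all genes rose and 13.0% fell. *NFKB1*, which encodes the p105 precursor of p50, stood at 92.6, 97.4 and 97.3 CPM in siBACH1, against 86.4, 91.6 and 87.9 CPM in siCont (log2 0.11, not called). *NFKB2*, the p100 precursor of p52, stood at 65.5, 60.7 and 58.6 CPM in siBACH1, against 34.5, 66.8 and 32.1 CPM in siCont (log2 0.47, edgeR adjusted p = 0.189). *RELA* and *RELB*, which encode the transactivating subunits p65 and RelB, were at 0.11 and 0.39 (edgeR adjusted p = 0.373 for *RELA*).

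Inhibitors and coregulators, 5 genes tested, held 3 of the 7 rises, while 10.9% of all genes rose. The role was not tested as a set. *NFKBIZ* (ENSG00000144802.7, chr3:101827991-101861022) encodes IκBζ, a nuclear coregulator that switches a subset of NF-κB target genes. It stood at 23.0, 25.6 and 22.1 CPM in siBACH1, against 11.6, 11.6 and 12.7 CPM in siCont, with no overlap. It rose 1.97-fold (log2 0.98 ± 0.12 SE, edgeR adjusted p = 0.00056).

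*NFKBIA*, IκBα, stood at 56.2, 59.4 and 52.2 CPM in siBACH1, against 43.4, 43.7 and 44.7 CPM in siCont, and rose by 0.35 ± 0.09 (SE, edgeR adjusted p = 0.02). *NFKBIE*, IκBε, stood at 7.98, 9.04 and 10.6 CPM in siBACH1, against 5.42, 6.46 and 5.54 CPM in siCont, and rose by 0.67 ± 0.18 (SE, edgeR adjusted p = 0.0274). Neither gene's groups overlapped, but both calls depended on single libraries. *NFKBIA* lost its call without siBACH1 replicate 1 or 2 or siCont replicate 1 (edgeR adjusted p = 0.0752, 0.104 and 0.067), and *NFKBIE* lost its call without siBACH1 replicate 2 or 3 or siCont replicate 1 or 3 (edgeR adjusted p = 0.0806, 0.12, 0.0854 and 0.0753). *NFKBIB* and *BCL3*, an atypical IκB protein that works with p50 and p52, were at 0.01 and -0.16 and were not called.

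*TNFAIP3* (ENSG00000118503.10, chr6:137867188-137883312) encodes A20, the ubiquitin-editing enzyme that shuts NF-κB signalling off. It stood at 26.9, 28.4 and 26.9 CPM in siBACH1, against 40.2, 55.4 and 47.5 CPM in siCont, and the groups did not overlap. It fell by 0.80 ± 0.12 (SE, edgeR adjusted p = 0.00185). *BIRC3*, the ubiquitin ligase cIAP2, stood at 67.1, 65.7 and 73.0 CPM in siBACH1, against 36.4, 73.8 and 33.6 CPM in siCont, and did not pass (log2 0.52, edgeR adjusted p = 0.173). *TNIP1*, *TRAF1*, *TRAF2* and *BIRC2* were at -0.04, 0.11, 0.27 and -0.23 and were not called.

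*IER3*, an immediate early gene that modulates cell survival, stood at 74.2, 77.0 and 63.7 CPM in siBACH1, against 127, 171 and 124 CPM in siCont, with no overlap. It fell 1.96-fold (log2 -0.97 ± 0.14 SE, edgeR adjusted p = 0.00098). Exons of *IER3* overlap *IER3-AS1*, and those of *TNFAIP3* overlap *AL357060.1*, each on the opposite strand. *TNFAIP2*, *TNFAIP8* and the adhesion molecule gene *ICAM1* were at 0.22, 0.23 and 0.62 and did not pass.

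**Figure D2:**
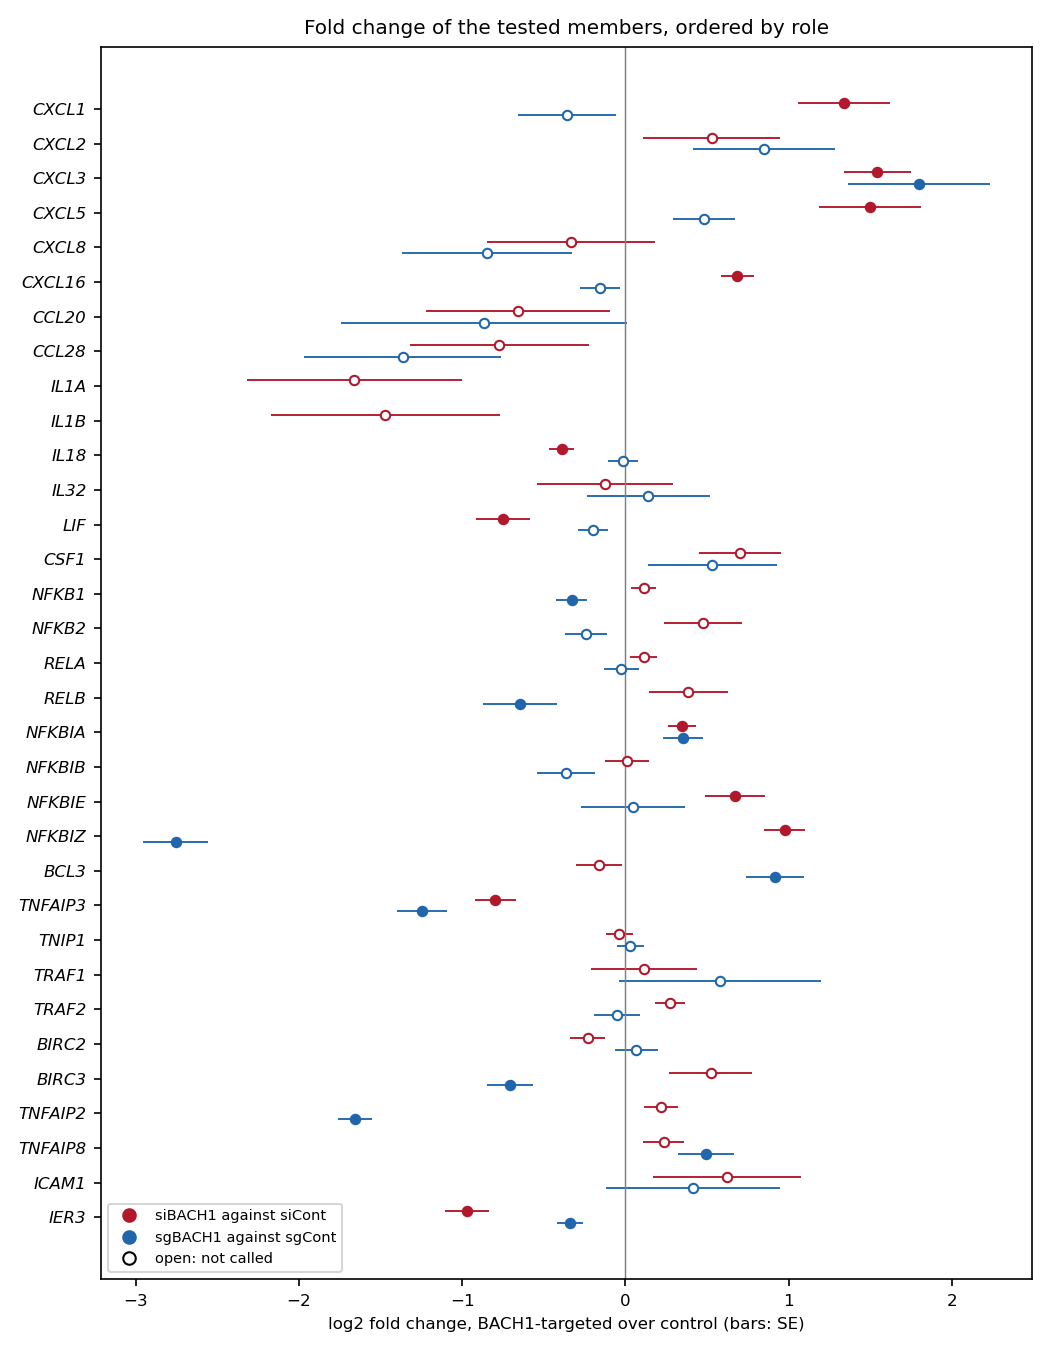
Log2 fold change of each tested member, siBACH1 over siCont in red and sgBACH1 over sgCont in blue, with bars for the SE and open symbols for genes not called; genes run down the page by role. *CXCL3* lay right of 0 in both comparisons, *TNFAIP3* and *IER3* left of 0 in both, and *NFKBIZ* on opposite sides (0.98 and -2.76).

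SiCont replicate 2 stood apart in many of these genes. It exceeded both other siCont libraries by more than 1.5 times in 12 of the 33 tested members, and in 6.72% of the 14591 genes. SiCont replicates 1 and 3 did so for none of the 33, and for 2.21% and 2.54% of all genes. In the other direction, siCont replicate 1 was more than 1.5 times below both others in 6 members (*CXCL1*, *CXCL8*, *CCL28*, *IL1B*, *IL32* and *ICAM1*) and in 2.89% of all genes. The 12 above in replicate 2 were *CXCL2*, *CXCL5*, *CXCL8*, *CCL20*, *CCL28*, *IL1A*, *IL1B*, *IL32*, *NFKB2*, *RELB*, *BIRC3* and *ICAM1*. In *BIRC3*, *NFKB2* and *RELB* that library was above all siBACH1 libraries, while siCont replicates 1 and 3 were below them.

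**Figure D3:**
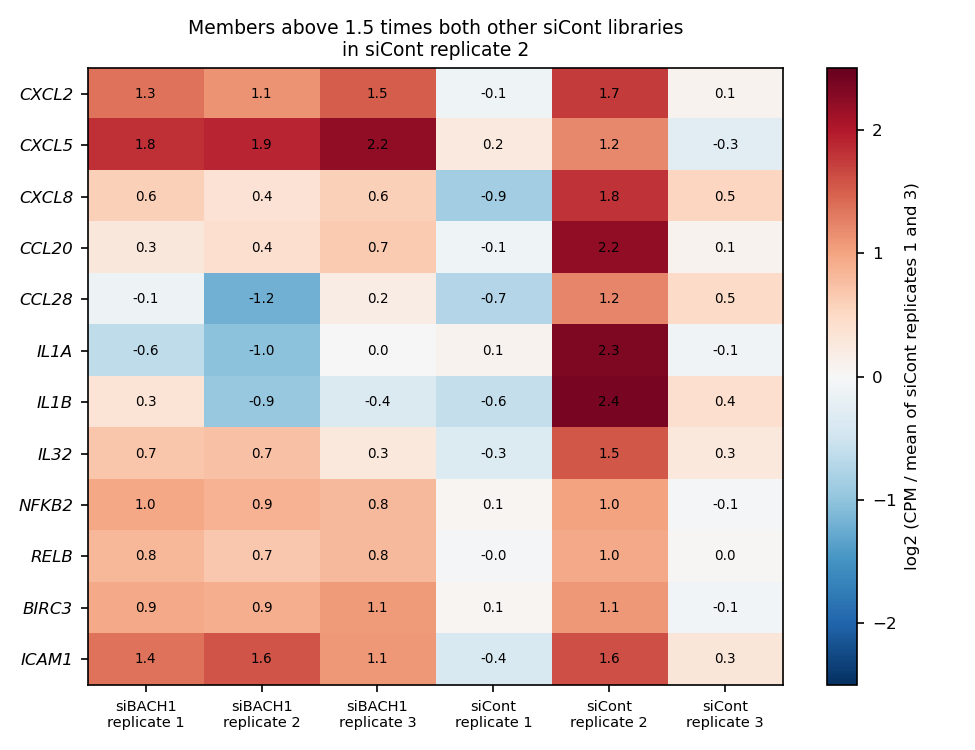
Log2 ratio of each siRNA library's CPM to the mean of siCont replicates 1 and 3, for the 12 members above 1.5 times both other siCont libraries in siCont replicate 2; columns are the siBACH1 and then the siCont libraries, and the colour scale is in log2 units. The siCont replicate 2 column is red throughout, up to 2.4 in *IL1B*, and the siBACH1 columns are red in *CXCL5*, *BIRC3* and *NFKB2* as well.

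Without siCont replicate 2, which leaves 2 control libraries, all 11 calls were kept and 8 members were gained, all of them rises. The 33 members then held 15 rises and 4 falls, and over 15112 genes 16.6% rose and 17.3% fell. *CXCL2* stood at 1.33 ± 0.22 (SE, edgeR adjusted p = 5.5e-05) and *ICAM1* at 1.32 ± 0.40 (edgeR adjusted p = 0.0118). *BIRC3* stood at 0.97 ± 0.09, *NFKB2* at 0.88 ± 0.09 and *RELB* at 0.76 ± 0.14 (SE).

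*TNFAIP2*, *TNFAIP8* and *TRAF2* stood at 0.33, 0.31 and 0.31 in that fit. *LIF* was then at -0.53 and *IER3* at -0.81, both still called. The median of the 33 was 0.33, against 0.00 over all genes. *CXCL8*, *CCL20* and *IL32* changed sign, to 0.49, 0.46 and 0.56. *TNIP1* and *NFKBIB* also changed sign, to 0.03 and -0.03. None of these genes was called with or without the library.

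**Figure D4:**
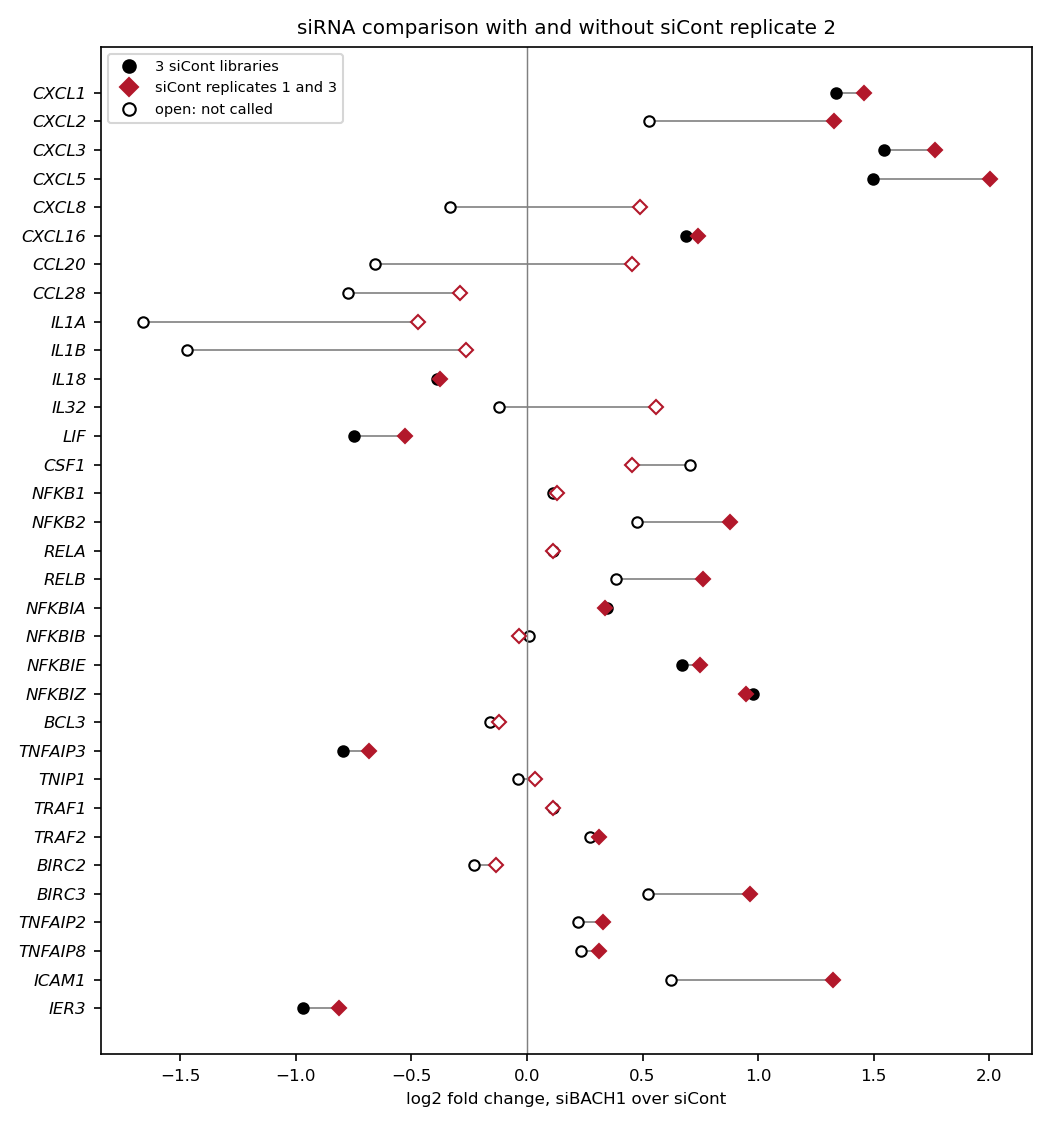
Log2 fold change, siBACH1 over siCont, of each tested member with all siCont libraries (black circles) and with siCont replicates 1 and 3 alone (red diamonds); open symbols are genes not called. *CXCL2* moves to 1.33 and *ICAM1* to 1.32 without siCont replicate 2, while *CXCL16*, *IL18*, *NFKBIA* and *NFKBIZ* barely move.

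Matches to AACATTA or ACATTAA in the 3′ UTR are given beside these results, because earlier results of these data had shown these letters in genes that fell. Of all genes with an annotated 3′ UTR, 52.7% of those that fell held 1 or both, against 12.5% of those that rose and 20.1% of those not called. None of the 4 members that fell held a match, and 2 of the 7 that rose did (*CXCL5* and *NFKBIZ*). *CCL20*, *CCL28*, *IL1A* and *TNFAIP8*, not called, also held a match. The part of such matches in the results was not tested.

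In the knockout comparison *NFKBIZ*, *TNFAIP2* and *TNFAIP3* had the largest falls among the called members, and *CXCL3* and *BCL3* the largest rises. Of the 37, 31 passed the filter and were tested among 14469 genes. By edgeR 4 rose, 7 fell and 20 were not called, while 11.3% of all genes rose and 12.3% fell. The 7 falls of 31 are above the latter share and the 4 rises are near the share of rises. The median log2 fold change of the 31 was -0.05, against 0.01 over all genes. Libraries of sgBACH1 and sgCont did not overlap for 15 of the 31, of which 5 were higher and 10 lower in sgBACH1, and for 36.5% of all genes.

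*NFKBIZ* stood at 5.99, 3.67 and 4.53 CPM in sgBACH1, against 33.9, 31.1 and 30.9 CPM in sgCont. Every sgBACH1 library was below every sgCont library. It averaged 4.73 ± 1.17 CPM in sgBACH1 and 31.9 ± 1.66 CPM in sgCont (SD, n = 3 each), a 6.75-fold fall (log2 -2.76 ± 0.20 SE, edgeR adjusted p = 1.31e-10).

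*TNFAIP2* (ENSG00000185215.4, chr14:103123442-103137439), a gene induced by tumour necrosis factor that acts in membrane protrusion, stood at 35.2, 45.7 and 41.4 CPM in sgBACH1, against 121, 125 and 139 CPM in sgCont. The groups did not overlap, and it fell by 1.66 ± 0.11 on the log2 scale (SE, edgeR adjusted p = 1.59e-11). *TNFAIP3* stood at 13.9, 12.8 and 14.0 CPM in sgBACH1, against 33.2, 30.6 and 32.7 CPM in sgCont. It fell by 1.24 ± 0.15 (SE, edgeR adjusted p = 9.56e-07), again with no overlap.

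*BIRC3* stood at 26.4, 22 and 22.5 CPM in sgBACH1, against 39.0, 42.7 and 34.3 CPM in sgCont, and fell by 0.71 ± 0.14 (SE, edgeR adjusted p = 0.00049). *IER3* stood at 171, 187 and 193 CPM in sgBACH1, against 224, 217 and 255 CPM in sgCont, and fell by 0.34 ± 0.08 (SE, edgeR adjusted p = 0.00279). The groups of both genes were apart. *TNFAIP8*, a further gene induced by tumour necrosis factor, stood at 20.3, 21.8 and 24.4 CPM in sgBACH1, against 13.5, 17.5 and 16.3 CPM in sgCont, and rose by 0.49 ± 0.17 (SE, edgeR adjusted p = 0.0383). The *TNFAIP8* call was lost without any 1 library other than sgCont replicate 2, with edgeR adjusted p = 0.0571, 0.0938 and 0.17 without sgBACH1 replicate 1, 2 and 3, and 0.133 and 0.059 without sgCont replicate 1 and 3.

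Of the 4 NF-κB subunit genes 2 fell, while 12.3% of all genes fell, and the role was not tested as a set. *NFKB1* stood at 70.2, 67.9 and 75.1 CPM in sgBACH1, against 82.2, 94.3 and 91.5 CPM in sgCont, and fell by 0.33 ± 0.10 (SE, edgeR adjusted p = 0.0132). *RELB* stood at 6.77, 9.70 and 7.66 CPM in sgBACH1, against 11.7, 13.8 and 12.3 CPM in sgCont, and fell by 0.64 ± 0.23 (SE, edgeR adjusted p = 0.0405). Neither gene's groups overlapped.

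*NFKB1* lost its call without sgBACH1 replicate 1 or 2 (edgeR adjusted p = 0.0603 and 0.0858). *RELB* lost it without sgBACH1 replicate 1 or 3 or sgCont replicate 2 or 3 (edgeR adjusted p = 0.162, 0.119, 0.0911 and 0.0718) and with no filter on low counts (0.0748). *NFKB2* stood at 30.5, 31.4 and 31.0 CPM in sgBACH1, against 38.4, 35.8 and 35.5 CPM in sgCont, apart but not called (log2 -0.24, edgeR adjusted p = 0.193). *RELA* was at -0.03.

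*BCL3* stood at 25.2, 37.1 and 33.1 CPM in sgBACH1, against 13.8, 15.6 and 21.1 CPM in sgCont, with no overlap. It rose by 0.92 ± 0.18 (SE, edgeR adjusted p = 0.000384), and a microRNA gene, *MIR8085*, overlaps its exons on the same strand. *NFKBIA* stood at 51.3, 42.6 and 45.5 CPM in sgBACH1, against 38.0, 35.3 and 36.0 CPM in sgCont, and rose by 0.35 ± 0.12 (SE, edgeR adjusted p = 0.0381). Its call was lost without sgBACH1 replicate 1 or 3 or sgCont replicate 2 or 3 (edgeR adjusted p = 0.2, 0.0867, 0.0735 and 0.0811) and with no filter on low counts (0.0687). *NFKBIB* and *NFKBIE* were at -0.36 and 0.05 and were not called.

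With all libraries in the fit, *CXCL3* alone of the 6 CXC chemokines was called in the knockout comparison, where 11.3% of all genes rose. It stood at 7.74, 8.21 and 4.39 CPM in sgBACH1, against 0.75, 1.97 and 3.12 CPM in sgCont, which rest on 128, 132 and 91 counts in sgBACH1 and on 14, 28 and 53 counts in sgCont. The groups did not overlap, and it rose by 1.80 ± 0.43 (SE, edgeR adjusted p = 0.00313). *CXCL2* stood at 4.17, 3.67 and 3.57 CPM in sgBACH1, against 3.11, 1.83 and 1.36 CPM in sgCont, apart but not called (log2 0.85, edgeR adjusted p = 0.176). *CXCL5* stood at 16.9, 23.6 and 23.9 CPM in sgBACH1, against 19.0, 13.7 and 13.4 CPM in sgCont (log2 0.48, edgeR adjusted p = 0.0732). Leaving out sgBACH1 replicate 1 or sgCont replicate 1 made *CXCL5* a called rise.

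*CXCL1* stood at 3.87, 8.09 and 5.25 CPM in sgBACH1, against 7.72, 6.76 and 7.54 CPM in sgCont, which overlapped (log2 -0.36, edgeR adjusted p = 0.448). *CXCL8* stood at 2.72, 0.933 and 1.20 CPM in sgBACH1, against 2.3, 3.87 and 2.59 CPM in sgCont, and *CXCL16* at 45.3, 50.02 and 41.2 CPM in sgBACH1, against 46.0, 57.2 and 48.8 CPM in sgCont. Neither was called. *CCL20* and *CCL28* were at -0.86 and -1.36 and were not called.

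None of the 4 tested cytokines was called in the knockout comparison, where 11.3% of all genes rose and 12.3% fell. *IL18* stood at 72.6, 75.4 and 74.4 CPM in sgBACH1, against 71.4, 78.8 and 74.7 CPM in sgCont, and *LIF* at 86.4, 83.9 and 73.3 CPM in sgBACH1, against 93.2, 93.6 and 92.2 CPM in sgCont. *IL1A* was left out by the filter, and with no filter on low counts edgeR called it as a rise. It had 5, 9 and 25 counts in sgBACH1 and 0 counts in each sgCont library. Over the groups that is 39 counts against 0, at least 12.2-fold higher in sgBACH1 when sgCont is set to its floor of 3 counts. *IL1B*, *IL6*, *TNF*, *CSF2* and *PTGS2* were not tested either. *TNF* had 7 and 2 counts in sgBACH1 replicates 2 and 3 and 11 counts in sgCont replicate 1.

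*IL32*, *CSF1*, *TNIP1*, *TRAF1*, *TRAF2*, *BIRC2* and *ICAM1* were at 0.14, 0.53, 0.03, 0.58, -0.05, 0.07 and 0.41 on the log2 scale and were not called. Position on the chromosome was read from the 50 tested genes on each side, fewer at a chromosome end. Around *IL32* these had a median of -0.44 and 52 of 100 fell, and around *TRAF2* a median of 0.29 with 27 of 85 rising and 2 falling. Around *RELB* the median was 0.18, around *BCL3* 0.11, around *NFKBIA* 0.11, and around *NFKBIZ* 0.03. Values of these genes less their neighbours were -0.82 for *RELB*, 0.81 for *BCL3*, 0.24 for *NFKBIA* and -2.79 for *NFKBIZ*.

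**Figure D5:**
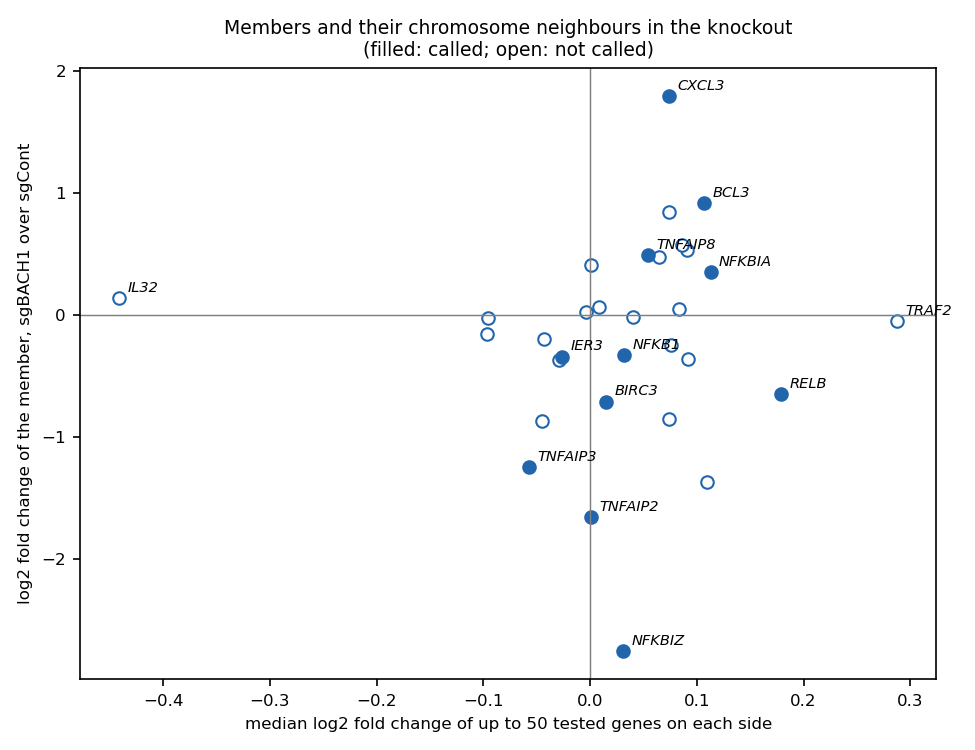
Log2 fold change of each tested member, sgBACH1 over sgCont, against the median log2 fold change of up to 50 tested genes on each side of it; filled points are called. *IL32* sits at a neighbour median of -0.44 and *TRAF2* at 0.29, while *NFKBIZ*, *TNFAIP2* and *TNFAIP3*, the largest falls among called members, sit near 0 on that axis.

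The experiments share no libraries, so their calls were set side by side. Of 31 members tested in both, 5 were called in both, 6 in the siRNA comparison alone, 6 in the knockout comparison alone and 14 in neither, and 8.34% of the 13845 genes tested in both were called in both. *CXCL3* and *NFKBIA* rose in both, and *TNFAIP3* and *IER3* fell in both. *NFKBIZ* rose in siBACH1 and fell in sgBACH1.

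Whether the log2 fold changes differed was tested by edgeR in 1 fit of all 12 libraries, as the knockout's value minus the siRNA's. The experiments also differed in delivery, selection and controls, and these cannot be told apart from the use of siRNA or guide. Of 33 members tested, 12 differed, and 23.6% of 15644 genes did. *NFKBIZ* differed by -3.74 ± 0.23 (SE, edgeR adjusted p = 5.33e-09), *TNFAIP2* by -1.88 ± 0.15 (edgeR adjusted p = 1.63e-07) and *BIRC3* by -1.24 ± 0.30 (edgeR adjusted p = 0.0056). *RELB* and *NFKB1* differed by -1.04 ± 0.32 and -0.45 ± 0.12 (edgeR adjusted p = 0.0249 and 0.0096), and *BCL3* by 1.07 ± 0.25 (edgeR adjusted p = 0.00481).

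Among the ligands *CXCL1* differed by -1.70 ± 0.42 (SE, edgeR adjusted p = 0.00686) and *CXCL16* by -0.85 ± 0.16 (edgeR adjusted p = 0.0009). *IL18* differed by 0.37 ± 0.11, *LIF* by 0.54 ± 0.19 and *IER3* by 0.62 ± 0.16 (edgeR adjusted p = 0.0198, 0.0471 and 0.00928), and the knockout's values were the nearer to 0 (-0.01, -0.20 and -0.34). For *IL1A* the adjusted p was 0.0019 by edgeR, and no size is given because sgCont had no counts.

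The difference for *CXCL5* was -1.03 ± 0.38 and did not pass (edgeR adjusted p = 0.0606), nor did *TNFAIP3* (-0.45 ± 0.17, edgeR adjusted p = 0.0673). Without siCont replicate 2 the differences of *CXCL5*, *TNFAIP3* and *NFKB2* were called. Those of *CXCL5* and *NFKB2* were also called with no filter on low counts, by DESeq2 and by limma-voom. With a replicate block *NFKB2* was called too. *NFKBIA* differed by 0.00 ± 0.14. The *LIF* difference was lost without siBACH1 replicate 2 or 3, siCont replicate 2, sgBACH1 replicate 1 or 2, or any 1 sgCont replicate, and stood at 0.32 without siCont replicate 2 (edgeR adjusted p = 0.0692). It was also lost by upper quartile scaling (edgeR adjusted p = 0.0514) and by limma-voom (adjusted p = 0.055). The *RELB* difference was lost without replicate 1 or 3 of siBACH1, siCont or sgBACH1. The *IL18* difference was lost without replicate 1 of siBACH1 or siCont or replicate 2 of sgBACH1. With no filter on low counts the *IL18* difference was lost as well (edgeR adjusted p = 0.11).

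Members with a promoter entry were also counted by the κB motif. In the siRNA comparison, where 10.9% of all genes rose and 13.0% fell, 5 of 16 tested members with the motif rose and 1 fell, and none of the 10 without it was called. In the knockout comparison, where 11.3% of all genes rose and 12.3% fell, 3 of 16 with the motif rose and 5 fell, and 1 of 8 without it rose (*TNFAIP8*). Groups this small hold few calls at such shares, no test was made, and the members called without a promoter entry (*CXCL16*, *IL18*, *LIF*, *NFKBIE*, *IER3* and *RELB*) stand outside them. Of the genes whose sequences are shown above, *TNFAIP3* fell in both comparisons, *NFKBIZ* moved in opposite directions, and *CXCL1* and *CXCL3*, whose windows differ at few bases, were both called in siBACH1 but only *CXCL3* in sgBACH1.

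Other genes of the pathway were read from 5 lists of 113 genes, 110 of them in the tables. The shares to set beside their counts are those over all genes tested. In siBACH1 10.9% rose and 13.0% fell, and in sgBACH1 11.3% rose and 12.3% fell. Lists this short hold few calls at such shares, and no list was tested as a set. Of 12 tested receptors 1 rose and 4 fell in siBACH1. *IL1RAP*, the accessory chain of the interleukin 1 receptor, stood at 8.41, 8.49 and 8.69 CPM in siBACH1, against 19.1, 23.9 and 16.3 CPM in siCont, and fell by 1.21 ± 0.17 (SE, edgeR adjusted p = 0.000902). *IL6ST*, the gp130 chain shared by *LIF* and interleukin 6 receptors, fell by 0.75 ± 0.14 (edgeR adjusted p = 0.00416), and *LTBR*, the lymphotoxin beta receptor, rose by 0.42 ± 0.08 (edgeR adjusted p = 0.00399). In sgBACH1 *LTBR* fell by 0.26 ± 0.08 (edgeR adjusted p = 0.0156), and the difference of its responses was called. That fall was lost without any 1 sgBACH1 replicate or without sgCont replicate 1 or 3. *IL6ST* carries a match to the 3′ UTR letters above, and *IL1RAP* and *LTBR* do not.

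In the knockout comparison 2 of 12 receptors rose and 4 fell. *TNFRSF1B*, tumour necrosis factor receptor 2, fell by 0.48 ± 0.09 (SE, edgeR adjusted p = 0.000277), and *IL6R*, the interleukin 6 receptor, rose by 1.46 ± 0.33 (edgeR adjusted p = 0.00172; 2.04 without sgCont replicate 2). *LIFR*, the *LIF* receptor, was called in both, at -0.88 ± 0.23 in siBACH1 and 0.72 ± 0.21 in sgBACH1, and its difference was 1.59 ± 0.30 (edgeR adjusted p = 0.000904). Its siRNA call was lost without siBACH1 replicate 1 or 3 or siCont replicate 3 (edgeR adjusted p = 0.0776, 0.0684 and 0.0516), its knockout call without sgBACH1 replicate 3 (0.0677), and it carries a 3′ UTR match.

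Signal transducers were tested at 27 genes, of which 1 rose and 5 fell in siBACH1, and 5 rose and 3 fell in sgBACH1. *MAP3K14*, the kinase NIK of the alternative pathway, rose in siBACH1 by 0.75 ± 0.16 (SE, edgeR adjusted p = 0.00783). *XIAP*, an inhibitor of caspases, stood at 68.1, 67.4 and 79.3 CPM in siBACH1, against 113.9, 173.6 and 117.6 CPM in siCont, and fell by 0.91 ± 0.16 (edgeR adjusted p = 0.00318). *XIAP* rose in sgBACH1 by 0.97 ± 0.11 (edgeR adjusted p = 4.21e-07), with a difference of 1.87 ± 0.21 (edgeR adjusted p = 5.32e-06), and it holds a 3′ UTR match. *IKBKB*, the catalytic subunit IKKβ, fell in sgBACH1 by 0.53 ± 0.12 (edgeR adjusted p = 0.00152) and *MYD88*, an adaptor of Toll-like and interleukin 1 receptors, rose by 0.48 ± 0.12 (edgeR adjusted p = 0.00374).

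Of 12 tested brakes none rose and 2 fell in siBACH1 (*DUSP1* and *CYLD*), and 3 rose and none fell in sgBACH1 (*SOCS3*, *CYLD* and *ITCH*). Leaving out replicate 1, 2 or 3 of siBACH1 ended both falls (edgeR adjusted p = 0.0809, 0.0846 and 0.0539 for *DUSP1*, and 0.0919, 0.125 and 0.105 for *CYLD*), and leaving out sgBACH1 replicate 1 ended the *CYLD* rise (0.077). *SOCS3*, a suppressor of cytokine signalling, rose in sgBACH1 by 1.54 ± 0.38 (SE, edgeR adjusted p = 0.00378). *ITCH*, a ubiquitin ligase that works with A20, rose by 0.36 ± 0.09 (edgeR adjusted p = 0.0024). Of 6 tested prostaglandin genes 2 rose and none fell in siBACH1, and 1 rose and 3 fell in sgBACH1. *HPGD*, which inactivates prostaglandins, rose in sgBACH1 by 0.99 ± 0.20 (edgeR adjusted p = 0.000513).

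Among 21 other NF-κB target genes tested 3 rose and 6 fell in siBACH1, and among 20 tested 5 rose and 4 fell in sgBACH1. *PLAU*, the urokinase plasminogen activator, stood at 48.1, 60.4 and 56.9 CPM in siBACH1, against 116.2, 124.7 and 116.2 CPM in siCont, and fell by 1.11 ± 0.10 (SE, edgeR adjusted p = 7.79e-05). In sgBACH1 its mean was 89.8 ± 9.14 CPM, against 194.5 CPM in sgCont, and it fell by 1.11 ± 0.09 (edgeR adjusted p = 8.44e-10). *JUNB*, an AP-1 subunit, fell by 0.86 ± 0.16 in siBACH1 and rose by 0.46 ± 0.11 in sgBACH1 (edgeR adjusted p = 0.00465 and 0.00405), a difference of 1.31 ± 0.19 (edgeR adjusted p = 9.71e-05). *TNFSF15*, a ligand of the tumour necrosis factor family, rose in sgBACH1 by 0.93 ± 0.11 (edgeR adjusted p = 5.94e-07), and *C3*, complement component 3, fell by 2.04 ± 0.45 (edgeR adjusted p = 0.0013). Exons of the named pathway genes *LTBR*, *IL6ST*, *LIFR*, *MAP3K14*, *CYLD*, *PLAU* and *JUNB* overlap exons of other genes on the opposite strand, such as *SCNN1A* for *LTBR*. Without strand-aware counting their reads cannot be told apart. Lists were tested gene by gene and not as sets, and as with the members they were chosen with earlier results of these data known.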

How the data were processed

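The authors deposited 1 table of unnormalized counts for the siRNA experiment and 1 for the knockout. HTSeq 0.9.1, SAMtools and the build hg19 are named in the submitters' processing notes, with no aligner, counting mode or strand setting. Libraries came from an Ion Total RNA-seq kit on rRNA-depleted RNA, per the labels' protocols, so nuclear RNA is counted. Of 57820 identifiers 51996 took a current symbol. Tests used edgeR 4.0.16 (R 4.3.3; TMM scaling, filterByExpr with a minimum count of 10, quasi-likelihood test, two-sided, Benjamini-Hochberg over all genes tested, called below 0.05), within each experiment, with no replicate block, and for the difference over 12 libraries. SEs are log2 fold changes over the square root of F. CPM used TMM within each experiment. Genes were named if members, or, in the pathway lists, among the 4 largest called changes per list and direction whose log2 CPM averaged 0 or more. Members and lists were chosen with earlier results of these data known. Gene positions and 3′ UTRs are from GENCODE 29 (GRCh38), matched by identifier and not compared with hg19 coordinates. On simulated counts with 200 changed genes, 67 were changed 2-fold and 67 were changed 1.5-fold. The 2-fold changes were recovered in 68.3% (siRNA, 14591 genes), 61.2% (knockout, 14469 genes) and 47.7% (difference, 15644 genes). For 1.5-fold changes recovery was 27.3%, 43.3% and 15.4% in that order. False calls made up 9.56%, 3.12% and 6.32% of all calls. Alternatives were 2 other scalings, no filter, DESeq2 1.42.0, limma-voom (limma 3.58.1), a replicate block and leaving out each library. Floors of 3 counts cover counting error only. Total counts of 13099706 to 21478886 per library limit what can be seen of members under about 1 CPM.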

Additional observations from a re-analysis of the deposited data

Results flagged for a closer look

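In 12 members the responses in the siRNA and knockout experiments differed by a test of the difference itself. That test used edgeR on all 12 libraries, as knockout minus siRNA on the log2 scale. The use of siRNA or guide cannot be told apart from the other differences between the experiments. *NFKBIZ* differed by -3.74, *TNFAIP2* by -1.88, *CXCL1* by -1.70, *BIRC3* by -1.24, *RELB* by -1.04, *CXCL16* by -0.85 and *NFKB1* by -0.45. *BCL3* differed by 1.07, *IER3* by 0.62, *LIF* by 0.54 and *IL18* by 0.37. *IL1A* had an adjusted p of 0.0019 by edgeR with no counts in sgCont and so no size. *NFKBIZ* was called in both experiments with opposite signs, rising in siBACH1 and falling in sgBACH1.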

How the results depend on the processing

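No call of a member was reversed under any alternative tried. Leaving out 1 library at a time gave 5 to 15 members that rose and 3 to 5 that fell in siBACH1, where 7 and 4 are reported, and 15 of these came without siCont replicate 2. In sgBACH1 it gave 2 to 4 that rose and 5 to 7 that fell, with 2 rises without sgBACH1 replicate 3 or sgCont replicate 3. The members whose response differed numbered 10 to 14. Over all genes 813, 823 and 821 rose without siBACH1 replicate 1, 2 or 3 and 2513 without siCont replicate 2, against 1586 reported; 1189 and 1255 fell without siBACH1 replicate 1 or 2, with a range of 1189 to 2608 around 1895. In sgBACH1 1175 to 1739 genes rose and 1321 to 1847 fell, and 2960 to 3990 differed. With no filter on low counts 10 members rose and 6 fell in siBACH1, and 3 rose and 6 fell in sgBACH1, where *IL1A* was gained and *RELB*, *NFKBIA* and *TNFAIP8* were lost. DESeq2 gained *IL1A* as a fall and *CSF1* as a rise in siBACH1, and neither gained nor lost a member in sgBACH1. Same-numbered libraries deviated together only weakly (r = 0.057, 0.041 and 0.02 for the siRNA, -0.015, 0.049 and 0.044 for the knockout). Libraries with unlike numbers had r from -0.048 to 0.01 for the siRNA and from -0.063 to 0.028 for the knockout. With 3 libraries per group, these values cannot decide whether the numbers mark a shared culture or day. The replicate block called 8 members up and 4 down in siBACH1, gaining *CSF1*, and kept all 11 calls in sgBACH1. In the difference it lost *LIF* and gained *NFKB2*. Of 882 values of uncalled members 54 changed sign across alternatives. Scaling shifted the median of all genes by at most 0.034. The cause of these changes was not tested. Members under about 1 CPM are limited by depth.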
